A study of Mus musculus with 6 samples.

Results

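Immediate early genes are switched on within minutes of a stimulus, from factors already present in the cell, and the inducible HSP70 genes are switched on by unfolded protein. The 10 genes described here are Fos, Fosb, Jun, Junb, Egr1, Atf3, Dusp1, Ier2, Hspa1a and Hspa1b, chosen by symbol as genes that respond quickly to the handling of tissue. All 10 were found among the 24521 genes of the deposited normalized table, which names them, and among the 55421 genes of the count table, which gave their reads. The rule uses no measured value, but the set was proposed with earlier results of these data known.

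The material was lung lobes taken from E18.5 mouse embryos, dissected without aeration and snap-frozen, in 3 libraries of Mll3 knockout lungs (genotype label Mll3FDC/FDC) and 3 of wild-type lungs. Mll3, encoded by Kmt2c, is a histone methyltransferase that acts at enhancers. The labels state no treatment, strain, sex or litter, and do not say whether libraries came from separate embryos. The p-values therefore measure only the spread between these samples, which may be technical in part or in whole. Reads given below set knockout 3 apart by sex, so only that library is known to come from another embryo than the others. How long each lung was handled before freezing is not given in the labels.

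Library totals ran from 20158689 to 23305306 reads, and the filter on low counts left 19042 genes for testing. Kmt2c stood at 158 ± 14.2 CPM (counts scaled to library size with TMM factors) in knockout lungs and 168 ± 9.58 CPM in wild-type lungs (SD, n = 3 each; adjusted p = 0.74); the deleted part is not stated, so the count over the whole gene does not check the genotype. Knockout 3 held 59951 Xist reads, against 6 to 27 in each of the other 5 libraries. It held 4 reads of Y-linked genes, against 7414 to 9300 in each of the others. By these reads knockout 3 was female and the others male, and the part of sex in the levels below was not tested. The lung label was borne out by all 11 alveolar epithelial markers, which had reads and summed to 17458 to 20994 CPM in knockout lungs and 17722 to 19975 CPM in wild-type lungs. Knockout 2 and wild type 1 stood apart in 6 skeletal muscle markers, which summed to 483 CPM in knockout 2 and 487 CPM in wild type 1 and to 11.6 to 17.6 CPM in the other 4 libraries.

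Fos, Fosb, Jun and Junb encode subunits of the AP-1 transcription factor, which binds DNA as a pair of proteins. Egr1 encodes a zinc finger transcription factor, Atf3 a stress-induced factor of the ATF/CREB family, and Dusp1 a phosphatase that switches MAP kinases off again. Ier2 encodes a nuclear protein of the early response. Hspa1a and Hspa1b encode the stress-inducible HSP70 chaperone from neighbouring copies in the major histocompatibility region. In textbook accounts Fos, Egr1 and Junb answer to serum response factor and CREB, and the HSP70 genes to heat shock factor, which binds inverted repeats of GAA. These transcripts are known to rise when tissue is cut, warmed or dissociated.

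The promoters are shown because elements that induce such genes can lie there. The activity of these windows was not tested. RefSeq promoter windows (GRCm38.p6, the build called mm10) matched 8 of the 10 members, all except Egr1 and Ier2. The 250 bases before the transcription start, 5′ to 3′ on the gene's strand, follow for Fos (chr12:85473640-85473889, plus strand), Dusp1 (chr17:26508473-26508722, minus strand), Atf3 (chr1:191183334-191183583, minus strand), Hspa1a (chr17:34972157-34972406, minus strand) and Hspa1b (chr17:34959239-34959488, minus strand). The windows of Atf3 and Dusp1 lie inside the annotated genes, whose 5′ ends are at 191218039 and 26562128. No window at those ends was shown or searched. Capitals mark matches to any motif searched.
Fos: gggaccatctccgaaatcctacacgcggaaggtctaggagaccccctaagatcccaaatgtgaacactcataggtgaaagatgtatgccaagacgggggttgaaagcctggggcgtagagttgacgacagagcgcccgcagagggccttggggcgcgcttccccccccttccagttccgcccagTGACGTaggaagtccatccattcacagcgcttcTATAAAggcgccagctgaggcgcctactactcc
Dusp1: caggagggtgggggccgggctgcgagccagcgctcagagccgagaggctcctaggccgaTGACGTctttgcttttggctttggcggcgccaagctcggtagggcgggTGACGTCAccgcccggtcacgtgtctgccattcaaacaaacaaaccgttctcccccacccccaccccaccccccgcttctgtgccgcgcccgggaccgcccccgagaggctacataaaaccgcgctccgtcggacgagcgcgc
Atf3: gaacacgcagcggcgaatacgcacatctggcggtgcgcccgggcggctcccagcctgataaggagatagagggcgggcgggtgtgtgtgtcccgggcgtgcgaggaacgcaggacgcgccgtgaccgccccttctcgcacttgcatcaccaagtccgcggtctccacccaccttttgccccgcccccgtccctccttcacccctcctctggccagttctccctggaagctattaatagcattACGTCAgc
Hspa1a: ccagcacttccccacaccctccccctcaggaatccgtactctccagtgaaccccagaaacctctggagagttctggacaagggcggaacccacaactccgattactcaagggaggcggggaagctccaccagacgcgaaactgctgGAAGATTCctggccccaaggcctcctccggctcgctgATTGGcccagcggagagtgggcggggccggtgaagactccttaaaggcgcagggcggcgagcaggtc
Hspa1b: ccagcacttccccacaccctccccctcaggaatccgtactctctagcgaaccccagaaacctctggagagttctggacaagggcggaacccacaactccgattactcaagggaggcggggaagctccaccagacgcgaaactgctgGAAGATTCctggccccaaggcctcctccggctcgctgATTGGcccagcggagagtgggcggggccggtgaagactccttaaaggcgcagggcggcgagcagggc

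Motifs were searched on both strands of these 250 bases, and the same search was made in 32851 promoter windows. TGACGT, the half-site of the cAMP response element, was found in Fos, Dusp1 and Atf3 and in 6.47% of all windows. In Fos it lay 66 to 61 bases before the start, upstream of a TATAAA at 33 to 28 bases, a sequence found in 12.4% of all windows. In Atf3 it lay on the other strand, 8 to 3 bases before the start. Dusp1 alone held the full element TGACGTCA, which contains the half-site, at 143 to 136 bases (1.55% of all windows), and a second half-site at 191 to 186 bases. GAANNTTC, a pair of heat shock units, was found in Hspa1a, Hspa1b and Jun and in 6.69% of all windows, 104 to 97 bases before the start in both HSP70 genes. CCAAT was found in Hspa1a, Hspa1b, Jun and Junb (33.9% of all windows), on the other strand at 67 to 63 bases in the HSP70 pair. GCGNGGGCG, the EGR site, was found in Fosb (4.70% of all windows). The CArG box of serum response factor (1.47% of all windows), TGANTCA of AP-1 (6.75%) and TTCNNGAA (7.17%) had no match in the 8 windows. A match of letters is a description and no measured binding site, and elements outside these 250 bases were not searched.

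The Hspa1a and Hspa1b windows were identical at 247 of 250 positions. Counted from 1 at the 5′ end, with the Hspa1a base first, the differences were C44T, T47C and T249G. The transcripts overlap as well: of all 75-base windows of the GENCODE M21 transcripts, 52.7% of those of Hspa1a and 55.8% of those of Hspa1b occur in both. Reads from the shared stretches cannot be assigned to a copy, and the counting command held no option for reads that map to several places. The split of reads between the 2 genes is therefore uncertain, and the levels of both may be understated.

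The 10 genes spanned a wide range of level. Per kilobase of exon, Jun was the most abundant at a mean of 48.0 CPM per kb over the 6 libraries, higher than 94.9% of the genes tested, and Ier2 followed at 31.9 (91.5%). Junb (12.1 CPM per kb) and Dusp1 (10.1) came next, and their ranges over the libraries overlapped. Fos stood at 3.78 CPM per kb, higher than 42.7% of the genes tested. Atf3 (1.48 CPM per kb), Egr1 (1.47) and Hspa1b (0.912) lay close together, with Egr1 overlapping both of its neighbours. Hspa1a averaged 0.566 CPM per kb and Fosb 0.0654. The other neighbours in this order did not overlap in any library. For Hspa1b and Hspa1a this rests on a lowest value of 0.806 against a highest of 0.793 CPM per kb. Their order is therefore uncertain, as is the split of their reads. Lengths are summed over all annotated exons, which lowers the value of a gene with long alternative exons. The 8 immediate early genes summed to between 264 and 297 CPM in knockout lungs and between 275 and 305 CPM in wild-type lungs, of which Jun alone made up 51.7 to 58.3% over the 6 libraries.

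**Figure D1:**
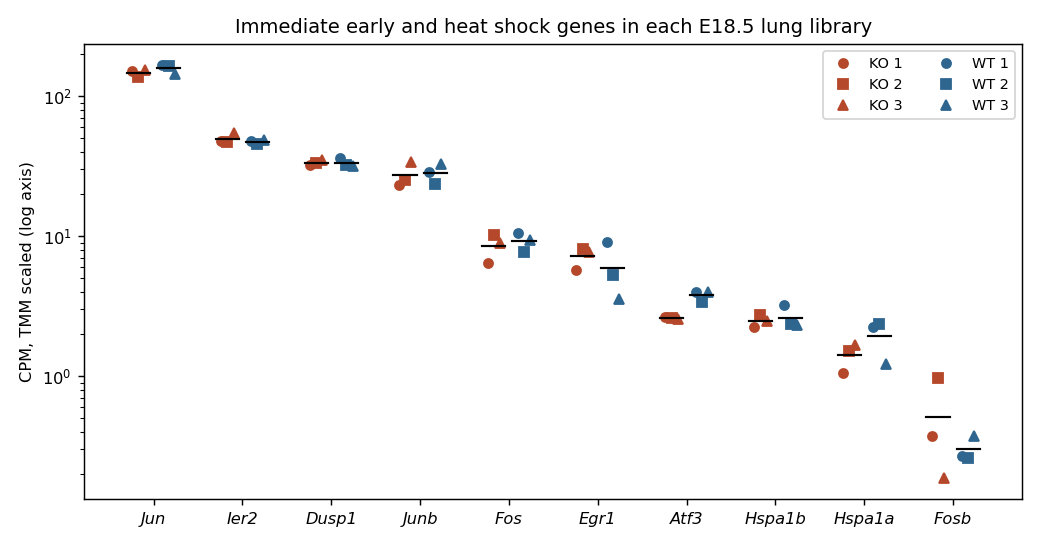
Level of each gene in CPM after TMM scaling (log axis) in knockout (KO, left, red) and wild-type (WT, right, blue) lungs; each symbol is 1 library and the black bars are genotype means (n = 3). Atf3 is the gene whose 3 knockout libraries, at 2.57 to 2.64 CPM, all lie below the 3 wild-type libraries, at 3.40 to 4.0 CPM.

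The comparison of knockout with wild-type lungs asks whether loss of Mll3 goes with a different level of these genes. No member differed between the genotypes at an adjusted p under 0.05 (quasi-likelihood F test of edgeR, adjusted by Benjamini-Hochberg over the 19042 genes tested, of which 0.368% were called, 0.0630% higher and 0.305% lower). Of the 9 members tested, 3 were higher and 6 lower in point estimate, with a median log2 fold change of −0.075 against 0.010 over all genes tested. Unadjusted, 1 of the 9 had a p under 0.05, as had 10.7% of all genes tested, and DESeq2 called none of the 9, where it called 2.12% of all genes it adjusted. In 1 of the 10 members, Atf3, the genotypes did not overlap, which was also so in 17.0% of all genes tested (8.60% higher and 8.45% lower in knockout lungs).

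Atf3 (ENSMUSG00000026628, chromosome 1, 191170296 to 191218039) had 2.64, 2.59 and 2.57 CPM in knockouts 1 to 3, against 3.97, 3.40 and 4.0 CPM in wild types 1 to 3. Every knockout library was thus below every wild-type library. The log2 fold change was −0.54 ± 0.17 (SE), a ratio of 0.69 with a 95% interval of 0.52 to 0.90, and it did not pass (adjusted p = 0.27; unadjusted 0.011). The counts behind these values were 63, 53 and 55 reads in knockout lungs and 88, 78 and 85 reads in wild-type lungs, where counting alone gives a coefficient of variation of 11.9%. The knockout libraries varied by 1.38%, less than counting error alone would give, so their SD understates the error. The difference was −0.47 within the title prefix that holds knockout 1 with wild types 1 and 2, and −0.61 within the other, which holds knockouts 2 and 3 with wild type 3; the labels do not say what the prefix stands for. Over 15 alternative settings it ran from −0.62 to −0.50, with 0.15 as the lowest adjusted p.

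Several cell type markers also separated the genotypes. The 7 macrophage and monocyte markers, all with reads, summed to 524 to 717 CPM in knockout lungs and 933 to 1377 CPM in wild-type lungs. Without Lyz2, which alveolar type 2 cells also express, the other 6 summed to 115 to 124 CPM in knockout lungs and 128 to 145 CPM in wild-type lungs. By gene, Lyz2 (log2 fold change −0.94), Fcgr1 (−0.79) and Mrc1 (−0.27) were lower without overlap. Csf1r (−0.049), Cd68 (0.086), Adgre1 (−0.35) and Itgam (−0.50) overlapped between the genotypes. None of the 7 passed in edgeR, and DESeq2 called 2 of them lower. The 5 mesothelial markers summed to 482 to 593 CPM in knockout lungs and 683 to 837 CPM in wild-type lungs, but only Msln (−0.89) and Krt19 (−0.41), which epithelium also expresses, were lower without overlap. Upk3b (0.0016), Wt1 (0.32) and Lrrn4 (−0.12) overlapped between the genotypes. Of the 11 alveolar markers, whose sum is dominated by Sftpc, 6 (54.5%) did not overlap, against 17.0% of all genes tested. The type 1 cell genes Aqp5 (log2 fold change −1.41, adjusted p = 0.042) and Pdpn (−0.74, adjusted p = 0.039) fell in edgeR. Ager (−0.45) and Hopx (−0.41) were lower and Nkx2-1 (0.25) and Epcam (0.37) higher without passing in edgeR. DESeq2 called all of these except Nkx2-1 (adjusted p = 2.1e-05 for Ager, 0.0016 for Hopx and 0.020 for Epcam). With a term for the title prefix in edgeR, Ager (adjusted p = 0.032) and Hopx (adjusted p = 0.028) passed as well. Of the 7 endothelial markers, 3 (42.9%) were lower without overlap: Kdr (−0.22), Cldn5 (−0.23) and Emcn (−0.24). In point estimate 5 of the 7 were lower and 2 higher. None of them passed in edgeR, and DESeq2 called Cldn5 (adjusted p = 0.049). All 7 airway markers were lower in point estimate, 2 (28.6%) without overlap, and 0 passed in edgeR or DESeq2. All 6 fibroblast markers overlapped between the genotypes. The part of any of these lists in the Atf3 difference was not tested. In whole tissue, fewer cells of a type and less RNA per cell cannot be told apart.

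Jun (ENSMUSG00000052684, chromosome 4, 95049034 to 95052222), the most abundant AP-1 subunit gene of the set, had 151, 136 and 154 CPM in knockouts 1 to 3, against 168, 165 and 144 CPM in wild types 1 to 3. The ranges overlapped, and the log2 fold change was −0.11 ± 0.08 (SE; adjusted p = 0.67). Every library held 2788 reads or more, and the interval ran from −0.28 to 0.063. The value was −0.057 without knockout 2, −0.071 without wild type 1, −0.18 without wild type 3 and −0.015 without both knockout 2 and wild type 1.

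Junb had 23.1, 25.3 and 34.0 CPM in knockouts 1 to 3, against 28.9, 23.5 and 32.9 CPM in wild types 1 to 3. Knockout 3 and wild type 3 were the high libraries of their genotypes, and the genotypes overlapped over nearly their whole range. The log2 fold change was −0.050 ± 0.17 (SE), with an interval of −0.44 to 0.34.

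Fos (ENSMUSG00000021250, chromosome 12, 85473890 to 85477273) had 6.40, 10.3 and 8.96 CPM in knockouts 1 to 3, against 10.6, 7.71 and 9.45 CPM in wild types 1 to 3. Knockout 1 was the lowest library, and knockout 2 and wild type 1 were the highest. The highest and the lowest library differed 1.65-fold. The log2 fold change was −0.12 ± 0.19 (SE; adjusted p = 0.88), with an interval of −0.53 to 0.30.

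Fosb was the rarest member, with 9, 20 and 4 reads in knockouts 1 to 3, against 6, 6 and 8 reads in wild types 1 to 3, and was the 1 member that failed the filter on low counts. Knockout 2 stood above the other 5 libraries, which held 4 to 9 reads. In the fit without that filter its log2 fold change was 0.73 (adjusted p = 0.78).

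Egr1 (ENSMUSG00000038418, chromosome 18, 34859823 to 34864984) was the most variable of the members tested. It had 5.69, 8.07 and 7.75 CPM in knockouts 1 to 3, against 9.03, 5.31 and 3.57 CPM in wild types 1 to 3. The wild-type libraries held both the highest and the lowest value, 2.53-fold apart. The log2 fold change was 0.26 ± 0.32 (SE; adjusted p = 0.83), with an interval of −0.48 to 1.00. The difference was −0.28 within the prefix of knockout 1 and 1.13 within that of knockouts 2 and 3, which rests on wild type 3 alone for the wild-type side. Without wild type 3 it was −0.0088, and without wild type 1 it was 0.68; neither passed.

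Dusp1 (ENSMUSG00000024190, chromosome 17, 26505590 to 26562128) differed least between its highest and lowest library, with 32.1, 33.6 and 34.9 CPM in knockouts 1 to 3, against 36.2, 32.4 and 31.9 CPM in wild types 1 to 3. The genotype means were 33.5 ± 1.40 CPM in knockout lungs and 33.5 ± 2.38 CPM in wild-type lungs (SD, n = 3 each), and the interval of the log2 difference was −0.18 to 0.19. Ier2 had 47.9, 46.7 and 54.8 CPM in knockouts 1 to 3, against 47.6, 45.4 and 48.9 CPM in wild types 1 to 3. Its log2 fold change was 0.075 ± 0.083 (SE), with an interval of −0.11 to 0.26. Knockout 3 was high, and the other 5 libraries lay close together.

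The HSP70 pair was low in all libraries. Hspa1a (ENSMUSG00000091971, chromosome 17, 34969190 to 34972156) had 25, 31 and 36 reads in knockouts 1 to 3, against 50, 54 and 26 reads in wild types 1 to 3. Wild types 1 and 2 were high, and wild type 3 was within the range of the knockouts. The log2 fold change was −0.47 ± 0.31 (SE; adjusted p = 0.64), with an interval of −1.15 to 0.22. It was −1.07 within the prefix of knockout 1 and 0.36 within the other, −0.29 without knockout 1 and −0.71 without wild type 3. Hspa1b (ENSMUSG00000090877, chromosome 17, 34956436 to 34959238) had 54, 56 and 53 reads in knockouts 1 to 3, against 71, 54 and 49 reads in wild types 1 to 3, and differed by −0.075 ± 0.21 (SE) on the log2 scale. With both copies summed to 1 row the log2 fold change was −0.23, with an interval of −0.68 to 0.22 (adjusted p = 0.74). Hspa1a took 31.6 to 40.4% of the pair's reads in knockout lungs and 34.7 to 50% in wild-type lungs; the exact (Clopper-Pearson) 95% intervals, which cover counting error only, were 21.6 to 43.1% in knockout 1 and 40.2 to 59.8% in wild type 2, the extremes.

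**Figure D2:**
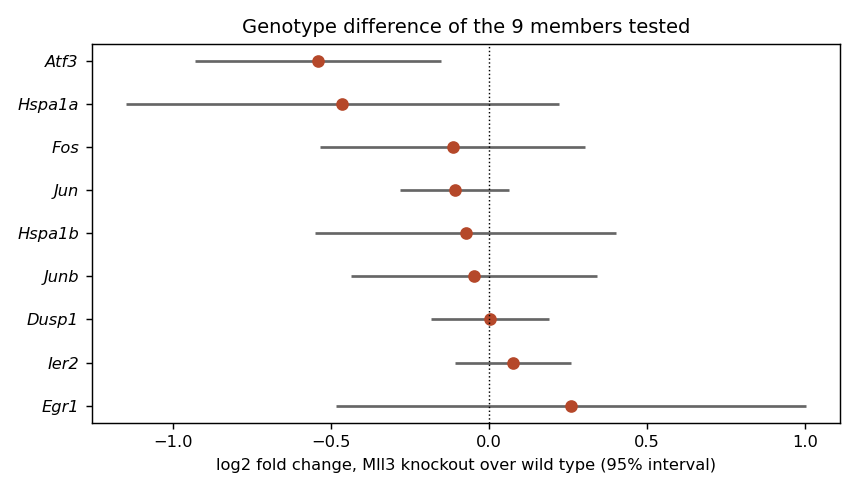
Log2 fold change of knockout over wild-type lungs for the 9 members tested, as points with 95% intervals from edgeR, ordered from lowest to highest. The interval of Atf3, −0.93 to −0.15, is the only one that leaves out 0, before adjustment over all genes.

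The members varied among libraries of one genotype to very different degrees. The biological coefficient of variation, edgeR's estimate of spread between libraries of a genotype beyond counting error, was 0.28 for Egr1, higher than for 94.0% of the genes tested, and 0.079 for Jun, higher than for 12.6%. Egr1, Junb (0.15) and Fos (0.18) lay above the trend for genes of their abundance, at 0.18, 0.12 and 0.17. Jun, Ier2, Dusp1, Atf3, Hspa1a and Hspa1b lay at or below it. The median over the 9 members was 0.16, against 0.12 over all genes tested, which include many of higher abundance.

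**Figure D3:**
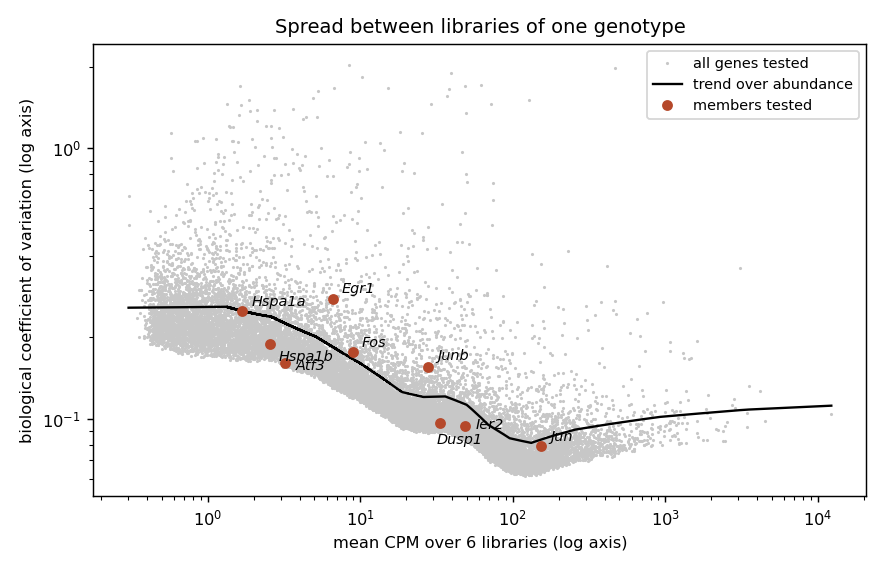
Biological coefficient of variation against mean CPM (both log axes) for every gene tested (grey), with the trend over abundance (black line) and the 9 members tested (red). Egr1 and Junb stand above the trend, whereas Dusp1, Ier2 and Atf3 lie below it.

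No library was high in all members. Wild type 1 was the highest library for 5 of the 10 and lowest for none, and knockout 1 was the lowest for 4 and highest for none. Of the 8 immediate early genes, 6 were above their own mean in knockout 3 and in wild type 1, 4 in knockout 2 and 1 in knockout 1. Fos, Egr1 and Hspa1b each had wild type 1 first and knockout 2 second, which are also the libraries with skeletal muscle reads. The other members did not share this order. From high to low, knockout 2 ranked 6 for Jun, 5 for Ier2 and Atf3, 4 for Junb and Hspa1a, and 3 for Dusp1. For Fosb knockout 2 ranked 1, and wild type 1 ranked 4, as it did for Ier2. The part of skeletal muscle in these levels was not tested. With knockout 2 and wild type 1 left out, a choice made after seeing the data, the log2 fold change was −0.16 for Fos, 0.59 for Egr1 and −0.50 for Atf3. None of the 3 passed in edgeR (adjusted p = 0.97, 0.73 and 0.81).

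**Figure D4:**
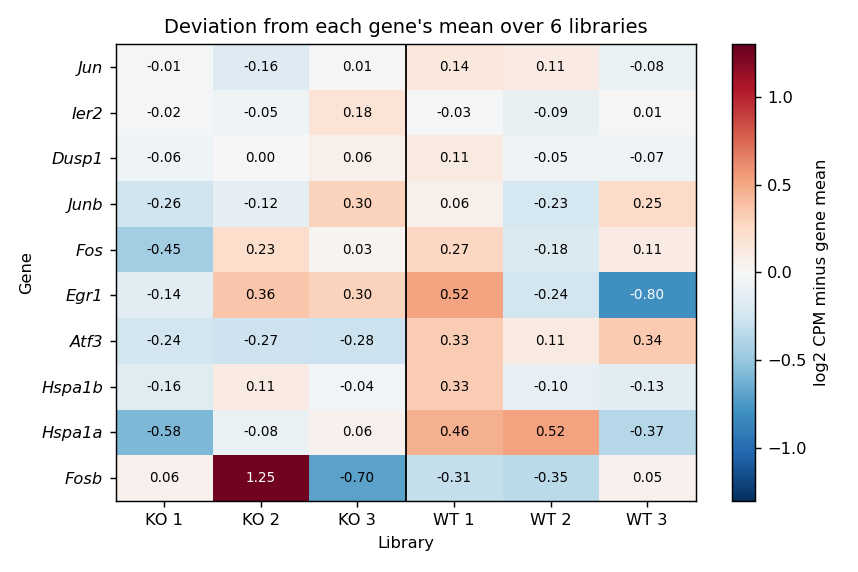
Deviation of each gene from its own mean over the 6 libraries, in log2 CPM, with knockout libraries left of the line and wild-type libraries right of it. The deepest colours are 1.25 for Fosb in knockout 2 and −0.80 for Egr1 in wild type 3, and no column is of one colour throughout.

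Other genes of the same responses were counted from lists. Among 43 other immediate early genes tested, of 45 listed, 0 passed in edgeR and 0 in DESeq2. Over all genes, edgeR called 0.368% of those tested and DESeq2 2.12% of those it adjusted. DESeq2 gave no adjusted p for Egr2, Nr4a3, Arc and Npas4, so it could not call them. In edgeR 11 (25.6%) had an unadjusted p under 0.05, against 10.7% of all genes tested. The genotypes did not overlap in 9 (20.9%), against 17.0% of all genes tested. The median log2 fold change of the 43 genes was −0.059. Egr2, a zinc finger factor related to Egr1, had 0.59, 0.49 and 0.42 CPM in knockouts 1 to 3, against 1.08, 1.13 and 0.99 CPM in wild types 1 to 3, with a log2 fold change of −1.09 ± 0.29 (SE; adjusted p = 0.18). Its genotypes did not overlap, at a level close to the filter on low counts. Klf6, a Krüppel-like factor gene, averaged 135 ± 15.5 CPM in knockout lungs and 168 ± 9.80 CPM in wild-type lungs (SD, n = 3 each; adjusted p = 0.19). Ccn2, a matricellular target of YAP and SRF signalling, averaged 56.4 ± 10.9 CPM in knockout lungs and 75.3 ± 7.90 CPM in wild-type lungs (adjusted p = 0.31). Errfi1 (−0.19), which encodes a feedback inhibitor of the EGF receptor, Ier5 (−0.18) and the phosphatase gene Dusp2 (0.51) completed the 6 with the lowest p, and none of them passed. With a term for the title prefix, 1 of these genes was called, Maff at −0.44 (adjusted p = 0.024; 0.42 without the term), where 3.28% of all genes were called. Maff was at −0.21 without wild type 3. Without knockout 2 and wild type 1, Ccn2 was at −0.23 and Errfi1 at −0.10.

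Among 31 other heat shock and chaperone genes, all tested, 1 fell, 0 rose and 30 did not pass. Over all genes tested, 0.305% fell and 0.0630% rose. The 1 that fell was Cryab, the gene of the small heat shock protein alphaB-crystallin, which is abundant in muscle and lens. It had 75.5, 73.0 and 78.7 CPM in knockouts 1 to 3, against 118, 96.2 and 102 CPM in wild types 1 to 3. The genotypes did not overlap. Of the libraries with skeletal muscle reads, knockout 2 had the lowest value of all and wild type 1 the highest, and the part of that tissue was not tested. Cryab fell by 0.48 on the log2 scale (SE 0.080, adjusted p = 0.043). The call was lost in each refit that left out 1 library (−0.55 to −0.39, adjusted p = 0.089 to 0.18), in voom (−0.47, adjusted p = 0.080), with library size as the only scaling (−0.44, adjusted p = 0.053) and in limma on the deposited normalized values (−0.48, adjusted p = 0.067). Without knockout 2 and wild type 1 it was −0.36 (adjusted p = 0.34). DESeq2 (adjusted p = 0.00017) and 4 other settings kept the call. The list's median was −0.020, and 4 of its members (12.9%) had an unadjusted p under 0.05 in edgeR, against 10.7% of all genes tested. The genotypes did not overlap in 5 (16.1%), against 17.0% of all genes tested.

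The small heat shock gene Hspb8 averaged 46.3 ± 2.93 CPM in knockout lungs and 59.7 ± 8.54 CPM in wild-type lungs (SD, n = 3 each; adjusted p = 0.22). Hsph1, an HSP110 chaperone gene, averaged 38.4 ± 1.11 CPM in knockout lungs and 46.4 ± 3.83 CPM in wild-type lungs (adjusted p = 0.24). Hsp90aa1, the inducible HSP90 gene, averaged 79.3 ± 6.22 CPM in knockout lungs and 93.5 ± 9.10 CPM in wild-type lungs (adjusted p = 0.34). Hspa2 (−0.31) and Hspb1 (−0.32) did not pass either. Without wild type 1 Hspb1 was at −0.056, and Hspa2 was at −0.16 without wild type 3 and −0.21 without knockout 1. With a term for the title prefix, Hsp90aa1 (adjusted p = 0.022) and Hspa4l (−0.47, adjusted p = 0.0088, against 0.63 without the term) were called as well as Cryab. That fit called 3.28% of all genes tested. Hspa4l was at −0.17 without knockout 1 and −0.16 without wild type 3. Without the filter on low counts, Klf6 (−0.32, adjusted p = 0.0085) and Hspb8 (−0.37, adjusted p = 0.014) were called. That fit called 443 genes in all, against 70 in the main fit.

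Among 20 genes of endoplasmic reticulum stress, 1 (5%), Manf at −0.17, had an unadjusted p under 0.05 in edgeR, against 10.7% of all genes tested. Of the 20, 0 passed in edgeR or DESeq2 (median 0.0089, range −0.17 to 0.22), and DESeq2 gave no adjusted p for Chac1. The genotypes did not overlap in 1 (5%), against 17.0% of all genes tested. Among 30 genes of the MAP kinase, SRF and CREB routes that switch immediate early genes on, 0 passed in edgeR or DESeq2. In edgeR 0 had an unadjusted p under 0.05, against 10.7% of all genes tested. The median was 0.0074, with a range of −0.083 to 0.17. In 1 of the 30 (3.33%) the genotypes did not overlap. Over all genes, edgeR called 0.368% of those tested and DESeq2 2.12% of those it adjusted. Srf itself was at 52.8 ± 5.05 CPM in knockout lungs and 48.6 ± 2.96 CPM in wild-type lungs (SD, n = 3 each; adjusted p = 0.68).

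**Figure D5:**
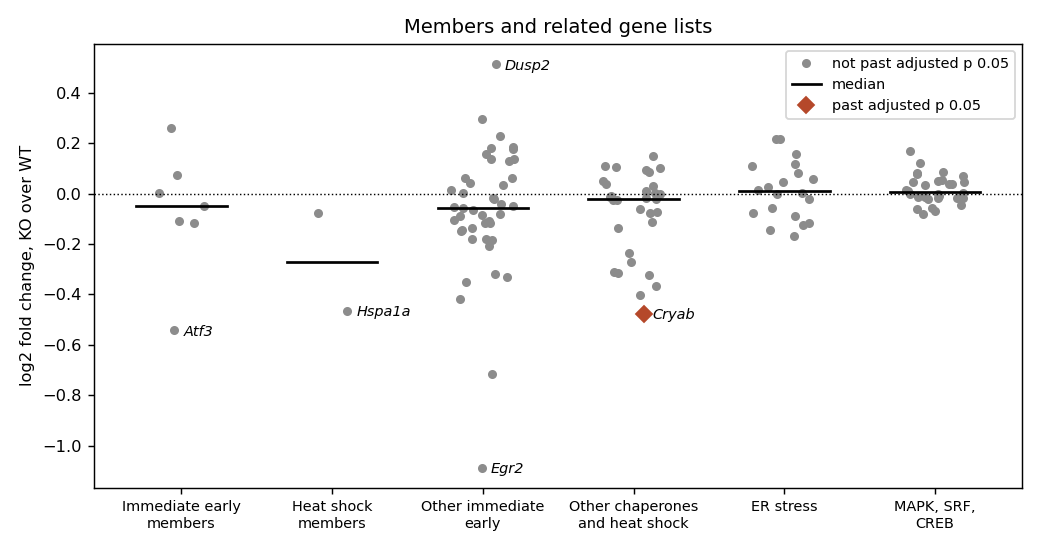
Log2 fold change of knockout over wild-type lungs for each tested gene of the members and of 4 related lists; the black bar is the median and the red diamond is the 1 gene past an adjusted p of 0.05, Cryab at −0.48. Egr2 at −1.09 is the lowest point and did not pass.

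The genes whose pattern over the 6 libraries was nearest to the mean pattern of the 8 immediate early members were Smim20, Gm38162, Mrvi1, Pcdhga7, Sec14l2, Cox11, Garem1 and Cyp2d22, with a root mean square difference of 0.031 to 0.041 in centred log2 CPM among 16905 genes of at least 1 CPM. That mean pattern spanned only 0.29 log2 units, and Fosb, the member with the fewest reads, had the widest deviations in it. Nearest to the mean of Hspa1a and Hspa1b were F730016J06Rik, Cd200r1, Ccn4 and Slc22a19, at 0.074 to 0.099. These are descriptions over 6 libraries with no test.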

How the data were processed

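Poly(A)-selected RNA was prepared with a directional kit, per the labels' protocols. Per the submitters' processing notes, bcl2fastq 2.19.1, GSNAP, featureCounts 1.6.3 and DESeq2 1.24.0 were used on mm10. The deposited count table holds raw read counts per gene, made per the file headers with strand setting 2, a mapping quality of at least 1 and an Ensembl 98 annotation; 92 spike-in names (1 read in all) were left out. The second table holds a normalized signal, which the authors made by dividing the counts by a size factor per library; multiplied back, 100% of its genes matched the counts within 0.1 read. It supplied the symbols.

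Genotypes follow the genotype label, 3 libraries each, and replicate numbers follow sample order. Genes were filtered with filterByExpr and tested with edgeR 4.0.16 (R 4.3.3): TMM factors, robust quasi-likelihood, genotype as the only term, Benjamini-Hochberg adjustment, threshold 0.05. Standard errors are the log2 fold change over the square root of F. Centred log2 CPM used a prior count of 2. Alternatives were DESeq2 1.42.0, limma 3.58.1 (voom, and log2 of the normalized signal plus 1), other scaling and filters, the title prefix as a term and each library left out. The tests were tried on simulated data. Counting error limits Fosb, Hspa1a, Hspa1b and Atf3, which have under 100 reads per library.

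The members and lists were chosen with earlier results of these data known. Named genes are the members, the called genes of each list and up to 6 with the lowest p (fewer where none was near the threshold), and the nearest patterns; Maff, Hspa4l and single marker genes were named after their values were seen.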

Additional observations from a re-analysis of the deposited data

How the results depend on the processing

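The number of genes called over the whole table, 70 in edgeR, was 357 in DESeq2, 8 in voom, 443 without a filter on low counts, 625 with the title prefix as a term, 43 in limma on the deposited normalized values and 0 to 41 with 1 library left out; without wild type 2 or wild type 3 it was 0, where 1954 and 1629 genes passed 0.05 before adjustment and DESeq2 made 309 and 217 calls. It was 9 without knockout 2 and wild type 1. Of the 9 members tested, none was called under any of the 15 alternatives, and Jun (−0.18 to −0.015), Atf3 (−0.62 to −0.50) and Hspa1a (−0.71 to −0.29) kept their direction in all of them. The value of Dusp1, 0.0024, turned to −0.0025 in DESeq2, −0.0023 with RLE size factors, −0.0013 without a filter, −0.0025 with a filter of 1 CPM in 3 libraries and −0.00088 in limma on the normalized values. Without knockout 2 and wild type 1 Junb was at 0.016 and Hspa1b at 0.022. With 1 library left out the values ran from −0.27 to 0.053 for Fos, −0.24 to 0.062 for Junb, −0.0088 to 0.68 for Egr1, −0.038 to 0.059 for Dusp1, −0.0028 to 0.12 for Ier2 and −0.17 to 0.092 for Hspa1b; the cause was not tested. With library size as the only scaling the medians were 0.013 for other chaperones and 0.040 for the MAP kinase, SRF and CREB list. The median of other chaperones was −0.049 without knockout 1, −0.048 without wild type 2 and −0.0049 without knockout 3, and that of other immediate early genes was −0.12 without knockout 3 and −0.037 without knockout 1. The median of endoplasmic reticulum stress genes ran from −0.045 to 0.057 over all settings. Fosb could be fitted only without the filter. The title prefix, which both genotypes share, was fitted as a block (625 genes called). No paired analysis was possible because no label pairs single knockout libraries with single wild-type libraries.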

Other observations

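Smooth muscle and myofibroblast markers summed to 920 CPM in wild type 1, against 303 to 459 CPM in the other 5 libraries, knockout 2 (444 CPM) among them. Cardiac muscle markers summed to 402 CPM in knockout 2 and 326 CPM in wild type 1, against 196 to 249 CPM in the others. Neutrophil markers summed to 20.2 to 53.7 CPM in knockout lungs and 24.0 to 42.1 CPM in wild-type lungs, with knockout 2 the highest. Erythroid markers ran from 2582 to 4473 CPM in knockout lungs and from 2882 to 4361 CPM in wild-type lungs. Mitochondrial transcripts took 1.44 to 1.48% of reads in knockout lungs and 1.43 to 1.65% in wild-type lungs.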
